A study of Homo sapiens with 30 samples.

Results

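The genes described here are the transcription factor NRF2, encoded by NFE2L2, and 9 genes known as its targets: HMOX1, NQO1, GCLM, GCLC, TXNRD1, OSGIN1, AKR1C1, AKR1B10 and ME1. They were chosen by name: every probe set whose symbol in the platform annotation is exactly 1 of these 10 was taken, which gave 17 probe sets out of 19064 probe sets of 11963 genes. RNA of small airway epithelial (SAE) cells, cultured human cells of the narrow airways bought from a supplier, was measured on 30 one-colour Affymetrix arrays. Cells received multi-walled carbon nanotubes (MWCNT) at 10 or 100 ug/ml, titanium dioxide nanobelts (TiO2-NB, here TiO2) at 10 or 100 ug/ml, or no particles (control, 0 ug/ml), and were harvested after 24 h or 1 h. Each of the 10 groups held 3 arrays, which the labels call biological replicates without saying whether the cells came from 1 donor or several. The p-values set a difference against the spread between arrays within groups, estimated over all 10 groups. Whether that spread includes differences between donors is not known. Both particles were set against the same 3 control arrays at each time. Within every group the probe-set values correlated at 0.995 or above on average, and array medians spanned 7.15 to 7.21 on the log2 scale. The lowest correlation, 0.995, was that of control 24 h replicate 1. This array also had the largest SD of deviations from its group means (0.155). Of 7 measured epithelial markers 5 lay above the table median of 7.18: KRT18, KRT7 and KRT8 averaged 12.92, 12.42 and 11.67, CDH1 7.93 and the basal keratin KRT5 7.24, with EPCAM (6.90) and the basal keratin KRT14 (3.94) below it. Of the markers of other cells, those above the median were TUBA1A (10.04, 1 of 3 ciliated), SFTPC (7.75, 1 of 4 alveolar), CD14 (7.71, 1 of 5 immune) and COL1A1 (8.02, 1 of 5 fibroblast), and none of 3 secretory or 4 endothelial markers lay above it.

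NRF2 is held low in resting cells by KEAP1, which hands it to a ubiquitin ligase for degradation. Electrophiles and oxidants modify KEAP1, and NRF2 then enters the nucleus, pairs with small MAF proteins and binds antioxidant response elements in front of its target genes. The targets make and recycle glutathione and thioredoxin, supply NADPH, break down haem and reduce quinones and carbonyls, which in airway epithelium is a defence against inhaled oxidants and particles. Because NRF2 is controlled mainly through protein stability, the NFE2L2 transcript is not a measure of its activity.

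The core letters of the antioxidant response element, TGACNNNGC, were searched on both strands of the RefSeq promoter windows (GRCh38.p14, 250 bases before to 50 after a gene's start). Windows were found for 8 of the 10 genes, 10 windows in all, and HMOX1 and AKR1B10 had none and were not searched. A match stood in 4 of the 10 windows, those of 3 genes, GCLM, TXNRD1 and ME1, and in 13.3% of all 35116 windows. The stretches before the start are shown to let a reader see the letters that match the core, with the match in capitals, in the direction of the gene.
GCLM: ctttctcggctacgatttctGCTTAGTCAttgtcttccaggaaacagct
TXNRD1, upstream start: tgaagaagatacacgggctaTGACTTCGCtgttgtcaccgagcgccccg
TXNRD1, downstream start: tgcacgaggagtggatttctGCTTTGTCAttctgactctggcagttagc
ME1: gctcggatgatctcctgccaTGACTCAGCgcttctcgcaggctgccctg
The GCLM stretch lies at chr1:93909436-93909484 on the minus strand, and its match, on the opposite strand, begins 34 bases before the start. The TXNRD1 stretches lie at chr12:104215660-104215708 and chr12:104286910-104286958 on the plus strand, with matches that begin 99 and 102 bases before their starts, the second on the opposite strand. The ME1 stretch lies at chr6:83431160-83431208 on the minus strand, its match begins 137 bases before the start, and its first 7 letters are also TGACTCA, the AP-1 site found in 4.95% of all windows. TXNRD1 and ME1 each held 1 further match, 8 bases before and 12 bases after a start. The windows of OSGIN1, NQO1, GCLC, AKR1C1 and NFE2L2 held no match to the core, and that of OSGIN1 held TGACTCA 97 bases before the start. These matches describe letters in a short window and were not tested as binding sites.

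**Figure D1:**
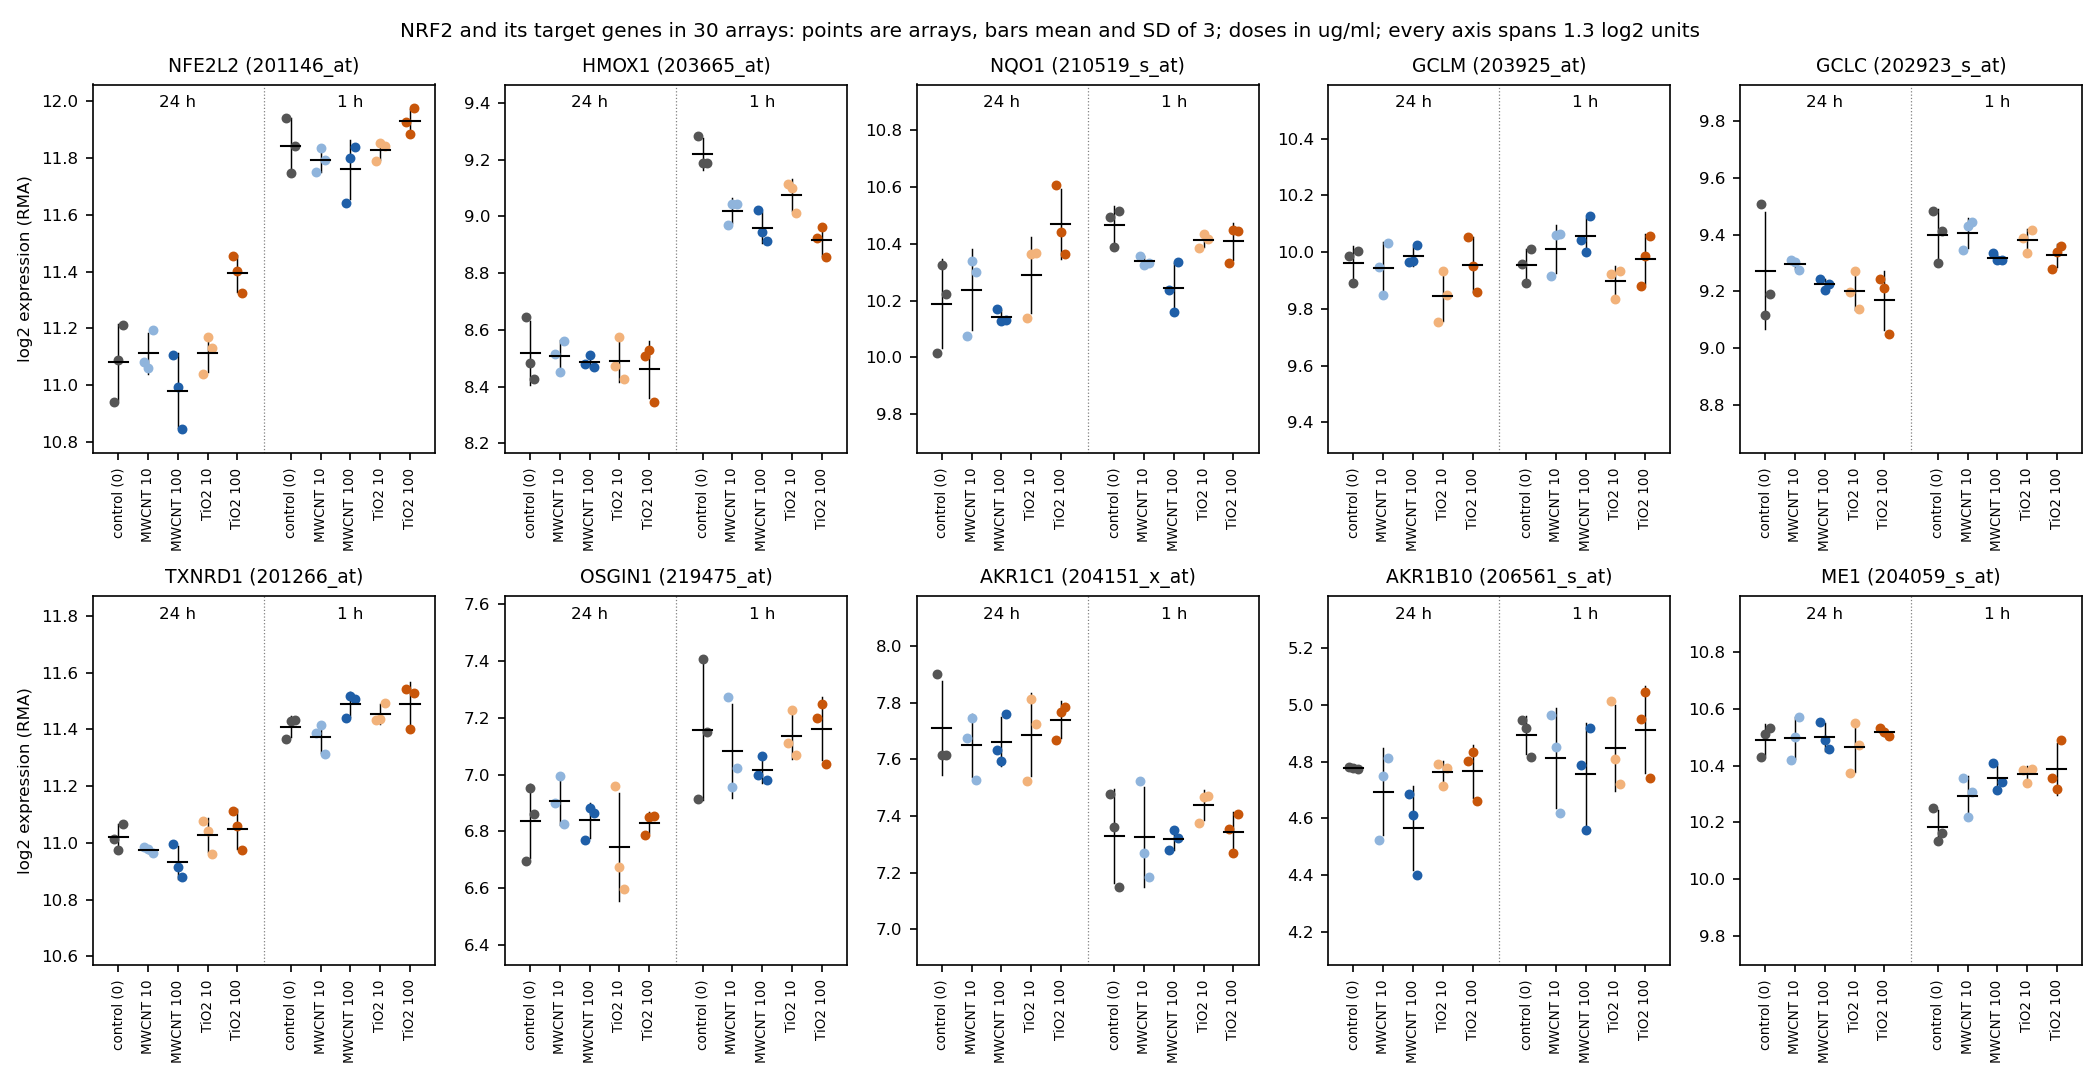
Log2 expression of NFE2L2 and its 9 targets (the probe set with the highest mean for each gene) in all 30 arrays, with 24 h left and 1 h right in each panel. Points are arrays, black bars the mean and SD of 3, and every axis spans 1.3 log2 units. NFE2L2, HMOX1 and TXNRD1 are lower in all 15 arrays of 24 h than in all 15 arrays of 1 h, AKR1C1 is higher, and NFE2L2 at 24 h is highest with TiO2 100.

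In unexposed cultures, NFE2L2 and several of its targets were lower at 24 h than at 1 h, while AKR1C1 and ME1 were higher. Of the 17 probe sets, 9 changed: 6 fell (NFE2L2, HMOX1, TXNRD1, OSGIN1 and 2 of NQO1) and 3 rose (2 of AKR1C1 and 1 of ME1). Of all probe sets, 28.9% changed in this comparison, 17.2% higher and 11.7% lower. The median difference was -0.12 over the 17 probe sets and -0.01 over all. All differences are group means on the log2 scale with the SE of a limma fit over all groups, p-values were adjusted over all 19064 probe sets within a comparison, and a probe set "changed" where that adjusted p was below 0.05. In cultures measured as a whole, fewer cells of a type and less RNA per cell cannot be told apart. The sample labels give no array batch or scan date, so a difference in handling or array run cannot be told apart from time here.

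NFE2L2 stood at 10.94, 11.09 and 11.21 in the control arrays of 24 h, against 11.94, 11.75 and 11.84 in those of 1 h. It fell by 0.76 (SE 0.07, 1.70-fold lower at 24 h, limma adjusted p = 9.98e-09), and the 2 groups did not overlap. HMOX1, the inducible haem oxygenase that turns haem into biliverdin, iron and carbon monoxide, stood at 8.64, 8.49 and 8.43 at 24 h, against 9.28, 9.19 and 9.19 at 1 h. Every array of 24 h was below every array of 1 h, and HMOX1 fell by 0.70 (SE 0.06, 1.63-fold lower, limma adjusted p = 1.64e-09). TXNRD1, the cytosolic thioredoxin reductase, stood at 11.02, 10.97 and 11.07 at 24 h, against 11.37, 11.43 and 11.43 at 1 h. It fell by 0.39 (SE 0.05, limma adjusted p = 1.45e-06), again with no overlap.

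NQO1, a quinone reductase that uses NADPH or NADH, has 3 probe sets. The brightest, 210519_s_at, stood at 10.02, 10.33 and 10.22 at 24 h, against 10.49, 10.39 and 10.52 at 1 h, and fell by 0.28 (SE 0.08, limma adjusted p = 0.00943). The set 201468_s_at stood at 9.52, 9.43 and 9.46 at 24 h, against 9.84, 9.72 and 9.73 at 1 h, and fell by 0.29 (SE 0.07, limma adjusted p = 0.00308). The third, 201467_s_at, had a difference of -0.21 (limma adjusted p = 0.0768), so all 3 sets lay lower at 24 h without overlap, and 2 of them passed. OSGIN1, an oxidative stress-induced growth inhibitor, lay below the table median, at 6.69, 6.95 and 6.86 at 24 h, against 6.92, 7.41 and 7.15 at 1 h. Its groups overlapped, and it fell by 0.32 (SE 0.10, limma adjusted p = 0.0204), a call that was lost without control 24 h replicate 1 or control 1 h replicate 2 (adjusted p = 0.114 and 0.185). The call for NQO1 210519_s_at was likewise lost without control 24 h replicate 1 (adjusted p = 0.0897).

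AKR1C1, an aldo-keto reductase that reduces carbonyls and steroids, went the other way. Its set 204151_x_at stood at 7.90, 7.61 and 7.62 at 24 h, against 7.48, 7.36 and 7.15 at 1 h, and rose by 0.38 (SE 0.09, limma adjusted p = 0.00284). Its set 216594_x_at stood at 7.49, 7.33 and 7.41 at 24 h, against 7.11, 6.99 and 6.96 at 1 h, and rose by 0.39 (SE 0.07, limma adjusted p = 4.99e-05). The ending _x_at marks sets whose probes can also detect related transcripts, and 2 AKR1C2 sets rose in the same comparison by 0.36 and 0.18 (limma adjusted p = 0.00191 and 0.0391), so the share of AKR1C1 itself in this rise is uncertain. The dim set 217626_at, without that ending, differed by -0.09. ME1, the cytosolic malic enzyme that makes NADPH, stood at 10.43, 10.51 and 10.53 at 24 h, against 10.25, 10.14 and 10.16 at 1 h for 204059_s_at. It rose by 0.31 (SE 0.06, limma adjusted p = 0.000142) with no overlap, whereas its sets 204058_at and 211204_at differed by 0.14 and -0.09 and did not pass. With only the 2 control groups in the fit, the calls for NQO1 210519_s_at, OSGIN1 and AKR1C1 204151_x_at were lost (adjusted p = 0.0886, 0.142 and 0.0617).

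**Figure D2:**
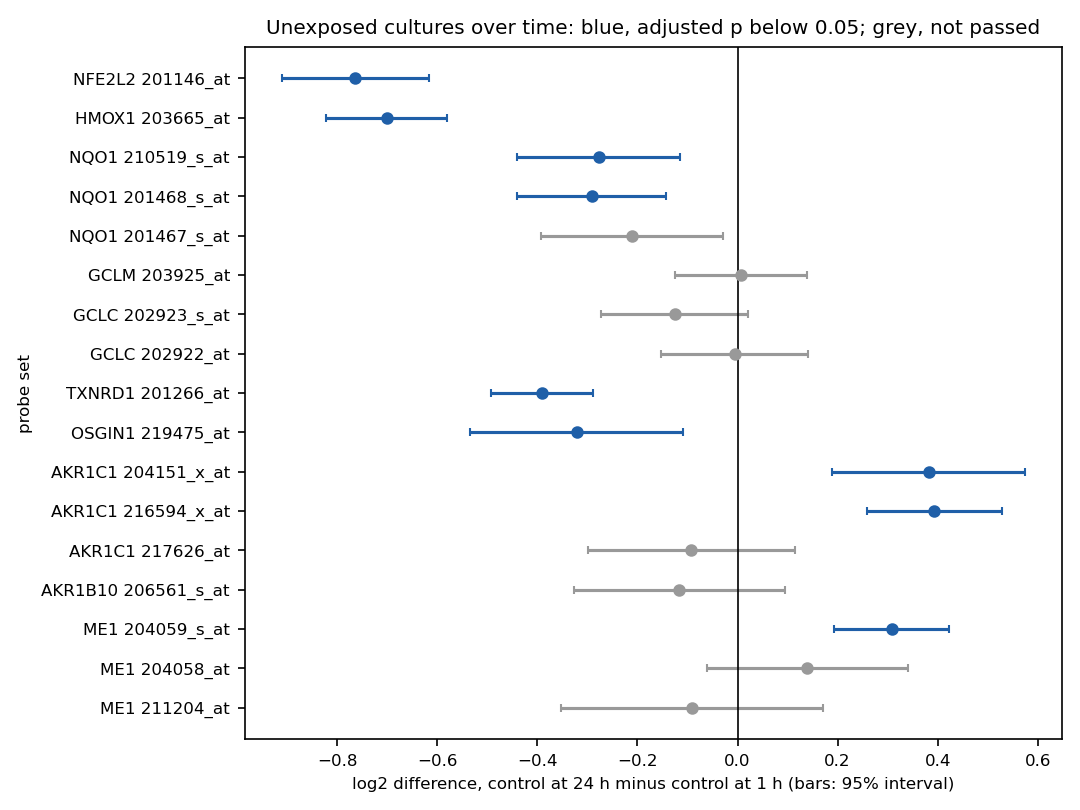
Log2 difference between control cultures at 24 h and at 1 h for the 17 probe sets, with 95% intervals from the limma fit. Blue marks the 9 probe sets with an adjusted p below 0.05 and grey the other 8. NFE2L2 (-0.76) and HMOX1 (-0.70) lie furthest to the left, and AKR1C1 216594_x_at (0.39) furthest to the right.

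The same direction over time was seen in the exposed cultures, which are separate arrays. NFE2L2 was lower at 24 h than at 1 h by 0.53 to 0.78 (means of -0.78 with MWCNT 100, -0.68 with MWCNT 10, -0.53 with TiO2 100, -0.71 with TiO2 10). Over all 15 arrays of each time, the lowest, median and highest values of NFE2L2 were 10.84, 11.10 and 11.46 at 24 h, against 11.64, 11.84 and 11.98 at 1 h. For HMOX1 they were 8.35, 8.49 and 8.64 at 24 h, against 8.86, 9.02 and 9.28 at 1 h. The 15 arrays of 24 h were therefore apart from the 15 arrays of 1 h for both genes. This also held for TXNRD1 (10.88 to 11.11 at 24 h, against 11.31 to 11.54 at 1 h), and in the other direction for AKR1C1 204151_x_at (7.52 to 7.90, against 7.15 to 7.52, a gap smaller than the rounding) and 216594_x_at (7.18 to 7.49, against 6.91 to 7.15). In all, 5 of the 17 probe sets were apart in this way, against 9.28% of all probe sets. NQO1 did not share the pattern in every group: with TiO2 100, 210519_s_at and 201468_s_at averaged 0.06 higher at 24 h on both sets, whereas in the other 4 groups both were lower by 0.10 to 0.29. The third set, 201467_s_at, was lower at 24 h in every group, with TiO2 100 by a mean difference of -0.03.

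At 24 h, NFE2L2 and 1 probe set of NQO1 rose with TiO2 at 100 ug/ml, and with the other 3 exposures none of the 17 probe sets passed in the fit over all groups. With TiO2 100, 2 of 17 rose and 0 fell, against 10.8% of the whole table changed, 3.73% higher and 7.06% lower. The count is near the background and is no result about the group of genes as a whole. With TiO2 10 the count was 0 of 17 (limma), against 4.87% of the table, and 1 probe set had an unadjusted p under 0.05. With MWCNT 100 and MWCNT 10 it was 0 of 17 (limma), against 0% and 0% of the table, and 3 and 0 probe sets had an unadjusted p under 0.05. Counts at an unadjusted p, here and below, are given without a share over all probe sets and are no result about these genes.

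NFE2L2 stood at 11.46, 11.40 and 11.33 in cultures with TiO2 100 at 24 h, against 10.94, 11.09 and 11.21 in control cultures of 24 h. All 3 exposed arrays were above all 3 control arrays, and NFE2L2 rose by 0.31 (SE 0.07, 95% interval 0.17 to 0.46, 1.24-fold, limma adjusted p = 0.00834). Over the doses of TiO2 it averaged 11.08 ± 0.134 in control, 11.11 ± 0.0678 at 10 ug/ml and 11.39 ± 0.0652 at 100 ug/ml (SD, n = 3 each). NFE2L2 at 24 h with TiO2 100 still lay below every group of 1 h. In the order of its 10 group means, neighbours overlapped except at 2 steps: between the lowest group of 1 h (MWCNT 100, 11.76 ± 0.104) and TiO2 100 at 24 h, and between TiO2 100 and TiO2 10 at 24 h.

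NQO1 210519_s_at stood at 10.61, 10.44 and 10.36 with TiO2 100 at 24 h, against 10.02, 10.33 and 10.22 in control. The groups did not overlap, by a narrow margin, and it rose by 0.28 (SE 0.08, 95% interval 0.12 to 0.45, 1.22-fold, limma adjusted p = 0.0253). The set 201468_s_at stood at 9.72, 9.66 and 9.62, against 9.52, 9.43 and 9.46 in control, a difference of 0.19 (limma adjusted p = 0.0821). It passed after cyclic loess (0.27, adjusted p = 0.0264) and with array weights (0.20, adjusted p = 0.00821). The third set, 201467_s_at, stood at 9.04, 8.91 and 8.89, against 8.62, 8.91 and 8.88 in control, a difference of 0.14 with overlapping groups.

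Both calls with TiO2 100 depended on control 24 h replicate 1. Among the controls of 24 h this array had the lowest value of NFE2L2 and of NQO1 210519_s_at. Of all arrays it also deviated most from its group means over the probe sets (SD 0.155). Without it the differences were 0.25 for NFE2L2 and 0.20 for NQO1 210519_s_at (limma adjusted p = 0.0519 and 0.138), with the compared groups alone in the fit the adjusted p-values were 0.138 and 0.187, and without TiO2 100 replicate 1 the NQO1 call was lost (adjusted p = 0.121).

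HMOX1 did not pass at 24 h with either particle. It averaged 8.49 ± 0.0207 with MWCNT 100, 8.51 ± 0.0549 with MWCNT 10, 8.46 ± 0.0997 with TiO2 100 and 8.49 ± 0.0742 with TiO2 10, against 8.52 ± 0.113 in control (SD, n = 3 each). The 95% interval of its difference from control was -0.15 to 0.09 with MWCNT 100 and -0.18 to 0.06 with TiO2 100. The 2 subunits of glutamate-cysteine ligase, the enzyme of the first step of glutathione synthesis, did not pass either. GCLM, the modifier subunit, differed by 0.03 with MWCNT 100 (interval -0.11 to 0.16) and by 0.00 with TiO2 100, and GCLC, the catalytic subunit, by -0.05 and -0.10 on 202923_s_at.

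**Figure D3:**
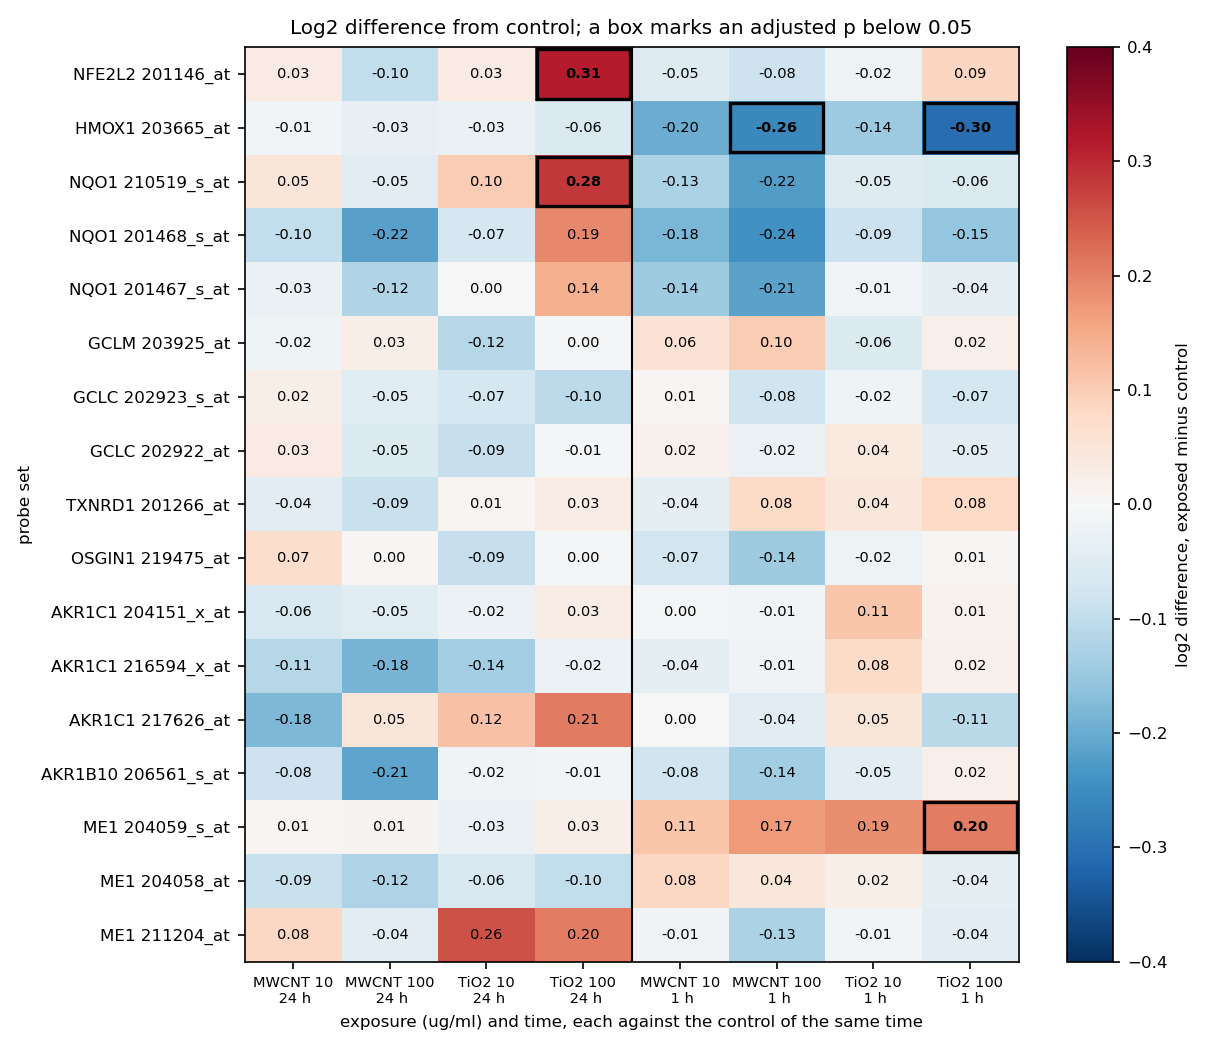
Log2 difference of each exposure from the control of the same time for the 17 probe sets (rows), with 24 h in the left and 1 h in the right block of columns. Red is higher and blue lower in exposed cultures, and a box marks an adjusted p below 0.05. Boxes stand at NFE2L2 (0.31) and NQO1 210519_s_at (0.28) with TiO2 100 at 24 h, at HMOX1 with MWCNT 100 (-0.26) and TiO2 100 (-0.30) at 1 h, and at ME1 204059_s_at (0.20) with TiO2 100 at 1 h.

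With MWCNT 100 at 24 h, 13 of the 17 differences were below 0, and the median was -0.05 over the 17 probe sets and 0.00 over all. Sets of 1 gene are not independent and all 17 share the 3 control arrays. The count below 0 is therefore no result about the genes as a group. The lowest were NQO1 201468_s_at (-0.22, interval -0.37 to -0.07, limma adjusted p = 0.808), AKR1B10 (-0.21, adjusted p = 0.834) and AKR1C1 216594_x_at (-0.18, adjusted p = 0.808). NQO1 201468_s_at stood at 9.35, 9.26 and 9.16 with MWCNT 100, against 9.52, 9.43 and 9.46 in control, and the groups did not overlap. In a limma fit with array weights, which gave control 24 h replicates 1 and 2 weights of 0.281 and 0.418 and replicate 3 a weight of 5.31, 4 probe sets fell with MWCNT 100: NFE2L2 (-0.21), NQO1 201468_s_at (-0.21), TXNRD1 (-0.13) and AKR1C1 216594_x_at (-0.17), with adjusted p from 0.0163 to 0.0318. In that fit 6.07% of all probe sets changed, and it leans on a single control array.

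The particles differed from each other at 24 h and 100 ug/ml in NFE2L2 and NQO1, both lower with MWCNT. MWCNT and TiO2 are different materials in shape and composition, set here at the same mass per volume. Of the 17 probe sets, 3 were lower with MWCNT 100 than with TiO2 100 and 0 were higher, against 9.08% of the whole table. The median difference was -0.12 over the 17 and 0.02 over all. This comparison uses no control array, but it shares the TiO2 100 arrays with the comparison above.

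NFE2L2 stood at 11.10, 10.99 and 10.84 with MWCNT 100, against 11.46, 11.40 and 11.33 with TiO2 100. The groups were apart, and NFE2L2 was lower by 0.41 (difference -0.41, SE 0.07, interval -0.56 to -0.27, 1.33-fold, limma adjusted p = 0.00109). NQO1 201468_s_at stood at 9.35, 9.26 and 9.16 with MWCNT 100, against 9.72, 9.66 and 9.62 with TiO2 100, a difference of -0.41 (SE 0.07, limma adjusted p = 0.00128). Both of these held in every alternative fit that was run. NQO1 210519_s_at stood at 10.17, 10.13 and 10.13 with MWCNT 100, against 10.61, 10.44 and 10.36 with TiO2 100, a difference of -0.33 (SE 0.08, limma adjusted p = 0.0129), lost without TiO2 100 replicate 1 (-0.26, adjusted p = 0.0731). NQO1 201467_s_at lay the same way without overlap (-0.26, adjusted p = 0.0612). It passed after cyclic loess, after a filter on dim probe sets, with array weights, with a replicate block and with the compared groups alone (adjusted p from 0.0101 to 0.0438). HMOX1 differed between the particles by 0.03 (interval -0.10 to 0.15) and ME1 204059_s_at by -0.02 (interval -0.13 to 0.10).

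**Figure D4:**
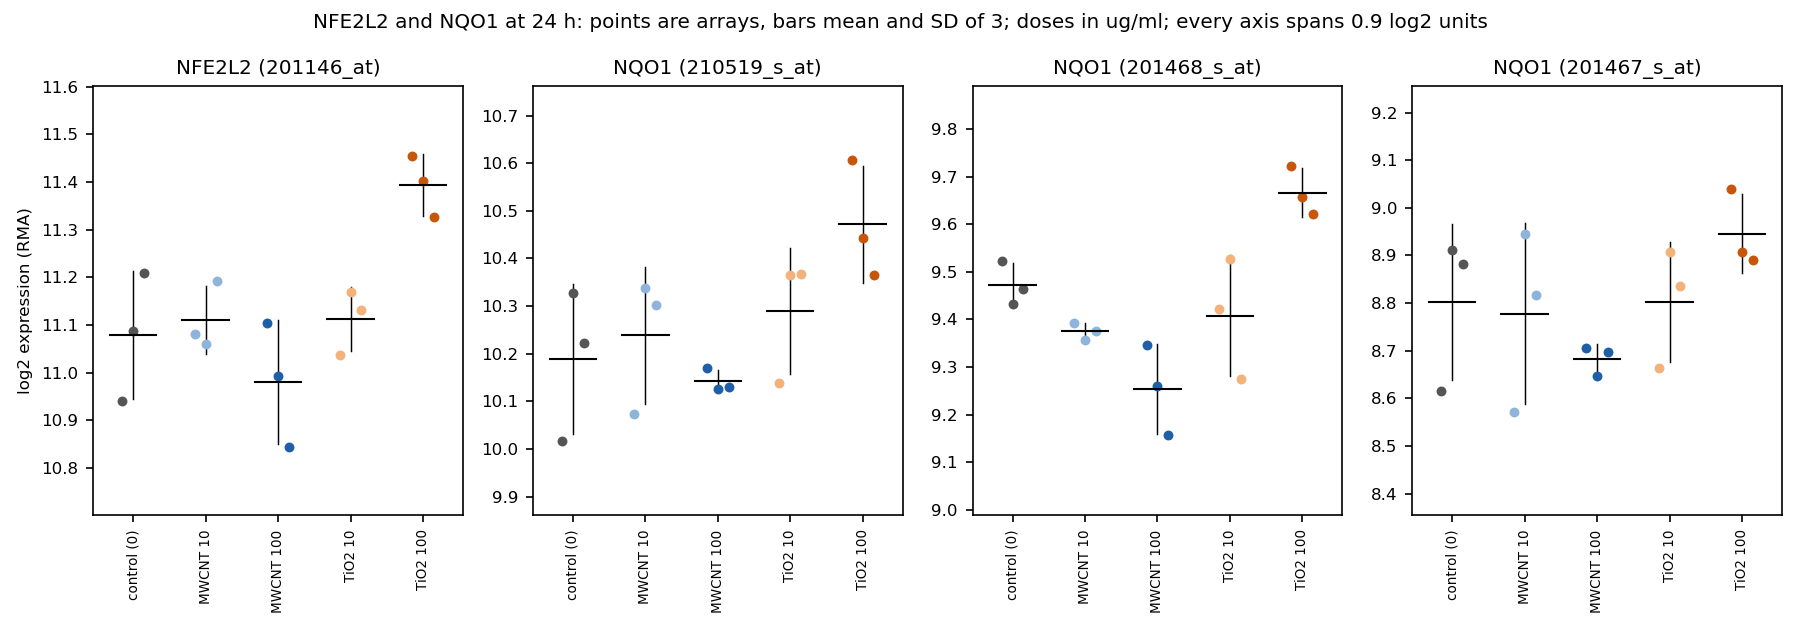
Log2 expression of NFE2L2 and the 3 NQO1 probe sets in the 15 arrays of 24 h. Points are arrays, black bars the mean and SD of 3, doses are in ug/ml and every axis spans 0.9 log2 units. TiO2 100 has the highest mean and MWCNT 100 the lowest in each panel, and the groups of NFE2L2 with MWCNT 100 (10.84 to 11.10) and TiO2 100 (11.33 to 11.46) are apart.

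At 10 ug/ml and 24 h, 0 of 17 probe sets differed between MWCNT and TiO2 (limma), against 3.57% of the table, and 1 had an unadjusted p under 0.05. That set was the dim AKR1C1 217626_at (-0.30, adjusted p = 0.0859). NFE2L2 differed by 0.00 between the particles at this dose (interval -0.15 to 0.15). At 1 h the count was 0 of 17 (limma) at 100 ug/ml and 0 of 17 at 10 ug/ml, against 0.021% and 0.0105% of the table, with 2 and 0 at an unadjusted p under 0.05. NFE2L2 at 1 h differed between MWCNT 100 and TiO2 100 by -0.17 (interval -0.32 to -0.02, adjusted p = 0.727).

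No probe set differed between the doses in the limma fit over all groups. For 100 against 10 ug/ml the counts were 0 of 17 for MWCNT at 24 h, TiO2 at 24 h, MWCNT at 1 h and TiO2 at 1 h, against 0%, 0.755%, 0.498% and 0.257% of the table. At an unadjusted p under 0.05 they were 1, 3, 1 and 1. NFE2L2 with TiO2 at 24 h was closest, at 0.28 (SE 0.07, adjusted p = 0.0657), and its arrays at 100 ug/ml were all above those at 10 ug/ml (11.46, 11.40 and 11.33, against 11.04, 11.17 and 11.13). NQO1 201468_s_at followed at 0.26 (adjusted p = 0.113). Both passed after a filter on dim probe sets (adjusted p = 0.0264 and 0.04998) and with array weights (0.0219 and 0.0174).

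At 1 h, HMOX1 was lower with 100 ug/ml of either particle, and 1 probe set of ME1 was higher with TiO2 100. With MWCNT 100, 1 of 17 probe sets changed, against 1.64% of the table, and with TiO2 100, 2 of 17, against 2.81%. With MWCNT 10 and TiO2 10 the counts were 0 of 17 (limma), against 0.0577% and 1.38%, with 2 and 2 probe sets at an unadjusted p under 0.05. The median difference of the 17 with MWCNT 100 was -0.08, against -0.02 over all.

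HMOX1 stood at 9.02, 8.94 and 8.91 with MWCNT 100 and at 8.93, 8.96 and 8.86 with TiO2 100, against 9.28, 9.19 and 9.19 in control cultures of 1 h. It fell by 0.26 with MWCNT 100 (SE 0.06, interval -0.38 to -0.14, limma adjusted p = 0.0192) and by 0.30 with TiO2 100 (SE 0.06, interval -0.43 to -0.18, 1.23-fold lower, limma adjusted p = 0.00262). At 10 ug/ml it stood at 8.97, 9.04 and 9.05 with MWCNT and at 9.12, 9.10 and 9.01 with TiO2, differences of -0.20 and -0.14 (limma adjusted p = 0.262 and 0.426). All 12 exposed arrays of 1 h were below the 3 control arrays, which the 4 comparisons share. The HMOX1 call with MWCNT 100 was lost without MWCNT 100 replicate 2 or 3 or control 1 h replicate 1 or 2 (adjusted p = 0.0804, 0.128, 0.113 and 0.0516). With the compared groups alone in the fit, both calls were lost (adjusted p = 0.152 with MWCNT 100 and 0.106 with TiO2 100).

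ME1 204059_s_at stood at 10.36, 10.32 and 10.49 with TiO2 100 at 1 h, against 10.25, 10.14 and 10.16 in control, and rose by 0.20 (SE 0.06, limma adjusted p = 0.0427). All exposed arrays were above the controls. This call was lost in 7 of 13 alternative fits, among them array weights (adjusted p = 0.0542), a replicate block (0.0512) and 4 fits that each left out 1 array, TiO2 100 replicate 1 or 3 or control replicate 2 or 3 (0.0703 to 0.294). With MWCNT 100 and TiO2 10 the same set differed by 0.17 and 0.19 (limma adjusted p = 0.142 and 0.124). The other 2 sets of ME1 differed by -0.04 each with TiO2 100.

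NQO1 at 1 h was lower with MWCNT 100 on each of its 3 sets, by values that did not pass: -0.22 for 210519_s_at, -0.24 for 201468_s_at and -0.21 for 201467_s_at (limma adjusted p = 0.207 and 0.0977 for the first and second). The set 201468_s_at stood at 9.59, 9.50 and 9.47 with MWCNT 100, against 9.84, 9.72 and 9.73 in control, with no overlap. It passed after the filter on dim probe sets (adjusted p = 0.0497) and with array weights (0.0275), where 210519_s_at also passed (0.0275). NFE2L2 at 1 h differed from control by -0.08 with MWCNT 100 and 0.09 with TiO2 100 (limma adjusted p = 0.736 and 0.745).

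Whether an exposure acted differently at 24 h than at 1 h was tested as the difference of the 2 effects. No probe set of the 17 passed (limma): the counts were 0 for MWCNT 100, MWCNT 10, TiO2 100 and TiO2 10, against 0.514%, 0%, 1.47% and 0.021% of the table, with 2, 1, 6 and 2 at an unadjusted p under 0.05. For TiO2 100 the difference of effects was 0.35 for NQO1 201468_s_at (SE 0.10, adjusted p = 0.0835), 0.34 for NQO1 210519_s_at (adjusted p = 0.123), 0.25 for HMOX1 (adjusted p = 0.134) and 0.23 for NFE2L2 (adjusted p = 0.252). In this fit neither the effect on NFE2L2 nor that on HMOX1 was shown to differ between the times. For HMOX1 the difference of effects passed with array weights, at 0.34 for TiO2 100 (adjusted p = 0.00677) and 0.32 for MWCNT 100 (adjusted p = 0.0103), and for TiO2 100 also without control 24 h replicate 1 (0.31, adjusted p = 0.0297). NQO1 201468_s_at with TiO2 100 passed with array weights, after cyclic loess, after the filter on dim probe sets and without TiO2 100 1 h replicate 3 (adjusted p from 0.0142 to 0.0491), and NQO1 210519_s_at with array weights (0.0201).

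Of the 10 genes, GCLM, GCLC and AKR1B10 passed in none of the 21 comparisons in the fit over all groups. GCLM had group means from 9.85 to 10.06 over the 10 groups. Over the 30 arrays it lay between 9.76 and 10.13, with overlap between all neighbours in the order of the groups. GCLC 202923_s_at lay between 9.05 and 9.51, and its difference for control 24 h against 1 h was -0.13 (adjusted p = 0.197). Its means at 24 h were also lower than at 1 h with TiO2 10 (-0.18) and TiO2 100 (-0.16), which were not tested. On 202923_s_at the difference in control passed without control 24 h replicate 1 (-0.24, limma adjusted p = 0.00318) and with array weights (-0.21, adjusted p = 0.0016). The value of that replicate, 9.51, stood above the 9.12 and 9.19 of its group. The second set of GCLC, 202922_at, did not share this fall. Between 1 h and 24 h it differed by -0.01 in control, 0.01 with MWCNT 10 and -0.04 with MWCNT 100. With TiO2 10 and TiO2 100 it differed by -0.14 and 0.03. With array weights 202922_at was lower with TiO2 10 than in control at 24 h (-0.17, limma adjusted p = 0.0392). AKR1B10, an aldo-keto reductase that reduces retinal and lipid aldehydes, was dim, with group means from 4.57 to 4.91 against the table median of 7.18. Of the 17 probe sets 12 lay above that median, and the 5 below it were those of OSGIN1 and AKR1B10, 216594_x_at and 217626_at of AKR1C1 and 211204_at of ME1.

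Probe sets of 1 gene did not always move alike. Over the 10 group means, which share arrays and the split by time, Pearson's r was 0.91 to 0.95 among the 3 sets of NQO1 and 0.97 between the 2 _x_at sets of AKR1C1. Against these 2, the set 217626_at of AKR1C1 had r of -0.03 and -0.08. The r was 0.61 between the 2 sets of GCLC, and 0.07 to 0.32 among the 3 sets of ME1.

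Around the members, 60 of 71 listed genes of the wider pathway were measured, with 100 probe sets. In control cultures 23 of these rose and 23 fell between 1 h and 24 h, a median of -0.02 against -0.01 over all. Of all probe sets, 17.2% rose and 11.7% fell in this comparison. Among regulators and partners of NRF2, 6 of 14 probe sets fell and 2 rose. MAFF, a small MAF protein that pairs with NRF2, was 8.60 ± 0.311 at 24 h, against 12.39 ± 0.00458 at 1 h (36711_at, SD, n = 3 each). It fell by 3.79 (limma adjusted p = 1.49e-20), and its second set fell by 3.05. BACH1, a repressor that competes for antioxidant response elements, fell by 0.77 (limma adjusted p = 8.95e-08).

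In the same comparison, where 17.2% of all probe sets rose and 11.7% fell, the counts per list were not tested against these shares. They are no result about the lists, and the genes are named for their own values. Among 20 probe sets of glutathione synthesis and use, 7 rose and 3 fell. CHAC1, which degrades glutathione, was 9.58 ± 0.141 at 24 h, against 7.13 ± 0.133 at 1 h, a rise of 2.45 (limma adjusted p = 6.9e-16), and GLRX, a glutaredoxin, fell by 0.82 and 0.54 on its 2 sets. Of 19 probe sets of the thioredoxin and peroxiredoxin system, 2 rose and 7 fell, with TXNIP, which binds and inhibits thioredoxin, down by 0.60 (201009_s_at, limma adjusted p = 1.85e-08). Of 17 for carbonyl and xenobiotic metabolism, 7 rose and 3 fell. Those 7 included ALDH3A2, a fatty aldehyde dehydrogenase, by 0.52 (210544_s_at), and PIR by 0.49. For NADPH supply it was 2 and 1 of 11, with IDH2 up by 0.52 (210045_at). For haem and iron handling it was 1 and 3 of 14, with SLC48A1, a haem transporter, down by 0.36 (218417_s_at). For superoxide and peroxide removal it was 2 and 0 of 5, both of them catalase (CAT, 0.35 and 0.28).

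With TiO2 100 at 24 h, 6 of the 100 probe sets rose and 4 fell, against 3.73% higher and 7.06% lower over all, with a median of -0.03 both over these and over all. The count of 10 is near the background of 10.8% and is no result about these lists, and the genes are named for their own values. ABCC3, an export pump for organic anions and conjugates, was 8.74 ± 0.0324, against 7.85 ± 0.0817 in control (208161_s_at, SD, n = 3 each). It rose by 0.89 (SE 0.05, 1.85-fold, limma adjusted p = 3.23e-10), and by 0.66 on 209641_s_at. Of the small MAF genes, MAFF rose by 0.36 on 36711_at (limma adjusted p = 0.0154, groups overlapping) but did not pass on its second set, and MAFG rose by 0.29 (adjusted p = 0.017), as did TXNIP by 0.22 (201009_s_at) and TXN, thioredoxin, by 0.16. SLC7A11, the cystine importer that feeds glutathione synthesis, fell by 0.32 (209921_at, limma adjusted p = 0.0029). GSTA4 fell by 0.19, BLVRA, a biliverdin reductase, by 0.19 on 203771_s_at and IDH1 by 0.16. The other sets of TXNIP, TXN, SLC7A11 and BLVRA did not pass. With TiO2 10 at 24 h, SLC7A11 fell by 0.22 on the same set (limma adjusted p = 0.0395) and 1 set of PRDX2 rose by 0.49 (adjusted p = 0.0363), and these were 2 of 100, against 4.87% over all. With MWCNT at 24 h, 0 of 100 passed at either dose (limma), against 0% of all probe sets at both doses. At an unadjusted p under 0.05 there were 7 at 100 ug/ml and 1 at 10 ug/ml.

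Between the particles at 24 h and 100 ug/ml, 5 of the 100 probe sets were higher and 6 lower with MWCNT, a count of 11 near the background of 9.08%. ABCC3 was 7.73 ± 0.0913 with MWCNT 100, against 8.74 ± 0.0324 with TiO2 100 (208161_s_at), a difference of -1.01 (SE 0.05, limma adjusted p = 1.87e-11). SLC7A11 was higher with MWCNT by 0.29 and 0.34 on 2 sets (limma adjusted p = 0.00499 and 0.0163). PRDX1, a peroxiredoxin, was lower by 0.20 (difference -0.20, adjusted p = 0.0197), and BLVRB, a biliverdin reductase, was higher by 0.26 (adjusted p = 0.00998). At 10 ug/ml, 3 were higher and 1 lower, against 3.57% over all, the last being GPX2, a glutathione peroxidase (-0.46, limma adjusted p = 0.0226).

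At 1 h, TXNIP fell on 2 of its sets with MWCNT 100, by 0.39 and 0.36 (limma adjusted p = 0.000166 and 1.88e-05), and with TiO2 100, by 0.27 and 0.29 (adjusted p = 0.00645 and 0.000304). The third call with MWCNT 100 was CBR3, a carbonyl reductase (-0.20, limma adjusted p = 0.015). With TiO2 100 it was 1 of the 2 sets of HMOX2, the constitutive haem oxygenase (-0.25, limma adjusted p = 0.00662). These were 3 of 100 for each particle at 100 ug/ml, near the 1.64% (MWCNT) and 2.81% (TiO2) of all probe sets. At 10 ug/ml they were 0 of 100, against 0.0577% and 1.38% (limma, with 11 for MWCNT and 9 for TiO2 at an unadjusted p under 0.05).

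The genes whose pattern over the 10 group means was most like that of a member were named by Pearson's r among probe sets above the table median. For NFE2L2 these were IER3, GTF3C2 and GLRX (206662_at), each with r of 0.99. For HMOX1 they were ELOB, ABT1 and CDCA4 (0.99 each), and for TXNRD1 they were CAV1, GADD45B and ADM (0.99 each). For NFE2L2, HMOX1 and TXNRD1 the arrays of 24 h and 1 h were apart, as they were for 1770 probe sets in all. For NQO1 210519_s_at, whose times overlap, they were CADM3 (0.97), PRDX1 (0.96) and GGT5 (0.95).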

How the data were processed

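The authors deposited log2 expression values per probe set, made with RMA (robust multi-array average) per the submitters' processing notes, with the version not given in the sources used here. RMA corrects background, forces equal distributions on the arrays by quantiles and sums the probes, which shrinks differences of dim probe sets. The number of arrays limits the precision. Of 22277 probe sets, 62 controls, 1043 with several symbols and 2108 with none in the platform annotation were left out, which left 19064.

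The log2 values as deposited were fitted with 1 mean per group in limma 3.58.1 (R 4.3.3, statmod 1.5.0, 20 residual degrees of freedom), with two-sided moderated tests of 21 comparisons and Benjamini-Hochberg adjustment within each at 0.05. An exact test of 3 arrays against 3 cannot go below p = 0.1. The fit was tested on simulated data. Alternatives were cyclic loess, a filter on dim probe sets, 1 probe set per gene, all non-control probe sets, array weights, a replicate block, the compared groups alone and leaving out each array. Promoter windows came from RefSeq (GRCh38.p14). Searches and plots ran in Python 3.11.15 with matplotlib 3.10.9, numpy 2.4.6 and pandas 2.3.3.

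The members and lists were chosen with earlier results of these data known. Every member probe set is reported. Of the other lists, up to 4 probe sets per comparison with the largest difference among those that passed could be named, and for likeness the 3 highest correlations per member. Listed genes without a single-symbol probe set were not analysed here.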

Additional observations from a re-analysis of the deposited data

How the results depend on the processing

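Of the 17 calls of member probe sets, 8 held in every alternative fit run. Over 216 recomputed values, 191 kept the call, 25 lost it and 0 changed direction. The 8 were control 24 h against 1 h for NFE2L2, HMOX1, TXNRD1, NQO1 201468_s_at, AKR1C1 216594_x_at and ME1 204059_s_at, and MWCNT 100 against TiO2 100 at 24 h for NFE2L2 and NQO1 201468_s_at. Of 297 recomputed counts of called member probe sets, 267 stayed within 1.5 times the reported count. In most comparisons the reported count was 0, and a count that stayed 0 lies within this limit. The figure therefore says little about the counts above 0. For MWCNT 100 at 1 h (reported 1) the count was 2 after the filter on dim probe sets, 3 with array weights, 0 with the compared groups alone and 0 to 1 with 1 array left out. For TiO2 100 at 1 h (reported 2) it was 1 with array weights, 1 with the replicate block, 0 with the compared groups alone and 1 to 2 with 1 array left out. For TiO2 100 at 24 h (reported 2) it was 0 with the compared groups alone and 0 to 2 with 1 array left out. Array weights moved the count to 4 for MWCNT 100 at 24 h, to 5 for MWCNT 100 against TiO2 100 at 24 h, to 2 for TiO2 100 against TiO2 10 at 24 h (2 also after the filter on dim probe sets), to 1 for TiO2 10 at 1 h and to 1 for TiO2 10 at 24 h. For the effect at 24 h minus that at 1 h, they gave 2 for MWCNT 100, 3 for TiO2 100 and 1 for TiO2 10, where 0 was reported. Array weights also raised the share of all probe sets called, to 6.07% for MWCNT 100 at 24 h, 22.2% for MWCNT 100 against TiO2 100, 1.77% for TiO2 100 against TiO2 10, 2.62% for TiO2 10 at 1 h, 16.2% for TiO2 10 at 24 h, and 2.75%, 5.49% and 3.6% for the 3 effects in that order. The TiO2 100 effect also gave 1 after cyclic loess, 1 after the filter and 0 to 1 with 1 array left out. The compared groups alone leave fewer arrays to estimate the spread. For the other moved counts the cause was not tested. The labels state no pairing of same-numbered arrays. The correlation of their deviations from group means ran from -0.254 to 0.392, and in 0 of 17 comparisons did every pair exceed 0.1. For control 24 h against control 1 h the 3 values were 0.316, 0.149 and 0.0934. With 3 pairs per comparison and a chosen limit, this cannot decide whether same-numbered cultures shared a donor or a run. The replicate block changed the count of member calls by over 1.5 times in no comparison other than TiO2 100 at 1 h. Among the probe sets below the table median of 7.18, AKR1B10 (mean 4.78), ME1 211204_at (5.17) and AKR1C1 217626_at (5.77) were dim. For such sets signal over background limits what can be seen. OSGIN1 (6.97) and AKR1C1 216594_x_at (7.17) lay close to that median.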
